A study of Homo sapiens with 4 samples.

Results

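The FOXO transcription factors and a set of their target genes were examined after knockdown of mutant p53 in the breast cancer line MDA-MB-468, which carries the p53 contact mutant R273H. The list holds 32 genes, namely 4 FOXO factors and 28 genes described as FOXO targets, and was taken by gene symbol. Of these, 30 have a transcript cluster of their own among the 18417 genes compared. FOXO6 and the kinase SGK3 are not analysed here, the latter because its cluster also names a read-through transcript. RNA was hybridised to 4 arrays (Affymetrix Human Gene 1.0 ST), 2 of cells transduced with a non-targeting lentiviral shRNA (NS, replicates 1 and 2) and 2 of cells transduced with a p53-targeting lentiviral shRNA (p53si-1, replicates 1 and 2). All arrays share the line, its growth medium with serum and a viral transduction. The line is a single model and p53si-1 a single shRNA, and the study's methods and results give different times after transduction. The replicates are described as independent experiments, so the p-values below measure the spread between these samples only.

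FOXO proteins are forkhead transcription factors at the end of the PI3K/AKT pathway. AKT phosphorylates them, upon which 14-3-3 proteins bind them and they leave the nucleus. When AKT signalling is low they stay in the nucleus and drive genes of cell cycle arrest, oxidative stress defence, autophagy, glucose production and, in muscle, protein breakdown. Because this control acts on the protein, the RNA level of a FOXO factor does not report its activity. The study asked how mutant p53 keeps such cells alive, with AKT signalling and the pro-apoptotic gene BMF as its subject, and the target genes are a transcript-level view of the same pathway.

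Values are log2 signals as the authors deposited them, 1 per transcript cluster and array. A difference is the mean of the p53si-1 arrays minus the mean of the NS arrays, so that a positive value means a higher signal with p53si-1. The standard error (SE), 95% interval and p come from limma, fitted over all genes, with Benjamini-Hochberg adjustment over all of them. The median signal of an array was between 5.66 and 5.69. The epithelial markers EPCAM, CDH1, KRT7, KRT8, KRT18 and KRT19 lay between 9.38 and 12.6 on every array. Of the 10 measured leukocyte, fibroblast and endothelial markers, 9 lay between 3.01 and 7.32, while the monocyte marker CD14 lay between 9.69 and 9.92. None of these markers differed between the groups at an unadjusted p under 0.05. In bulk RNA, fewer cells of a type and less RNA per cell cannot be told apart. The p53 transcript is not analysed here, and how far it was depleted on these arrays is not given.

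The upstream sequences of CCNG2, CDKN1B, BCL6 and FOXO4, the 4 members with a higher signal at an unadjusted p under 0.05, are shown because FOXO proteins act on genes through such regions. Each is the 250 bases before the transcription start site, 5′ to 3′ on the gene's strand, from RefSeq on GRCh38.p14. For BCL6, which has several starts in RefSeq, the outermost is shown.

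CCNG2, chr4:77156957-77157206, plus strand: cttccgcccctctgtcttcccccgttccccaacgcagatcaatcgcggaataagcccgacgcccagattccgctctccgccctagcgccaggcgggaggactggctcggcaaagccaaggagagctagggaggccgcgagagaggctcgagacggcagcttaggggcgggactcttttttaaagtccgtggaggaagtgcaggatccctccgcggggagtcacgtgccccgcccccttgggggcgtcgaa
CDKN1B, chr12:12717118-12717367, plus strand: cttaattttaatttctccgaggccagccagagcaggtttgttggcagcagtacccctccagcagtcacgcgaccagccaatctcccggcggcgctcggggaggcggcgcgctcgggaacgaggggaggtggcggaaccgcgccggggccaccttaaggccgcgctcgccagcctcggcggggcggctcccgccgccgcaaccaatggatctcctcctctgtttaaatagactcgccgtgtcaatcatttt
BCL6, chr3:187745469-187745718, minus strand: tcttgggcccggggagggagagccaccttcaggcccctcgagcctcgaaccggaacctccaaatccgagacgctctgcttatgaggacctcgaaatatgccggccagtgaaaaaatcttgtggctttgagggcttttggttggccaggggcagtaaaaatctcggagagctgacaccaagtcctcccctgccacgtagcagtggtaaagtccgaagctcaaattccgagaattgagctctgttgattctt
FOXO4, chrX:71095601-71095850, plus strand: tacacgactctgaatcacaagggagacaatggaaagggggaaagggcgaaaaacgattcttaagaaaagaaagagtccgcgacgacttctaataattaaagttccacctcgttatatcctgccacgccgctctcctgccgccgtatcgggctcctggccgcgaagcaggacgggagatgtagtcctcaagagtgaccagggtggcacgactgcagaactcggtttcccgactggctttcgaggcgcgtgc

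The FOXO consensus, GTAAACA, was searched on both strands of the 300 bases from 250 before to 50 after each start, with the related forms ATAAACA and CAAAACA. The 3 words cannot match the same 7 bases. Windows were found for 26 of the 30 measured members, 38 windows in all, and not for TRIB1, FBXO32, PINK1 and PCK1. None of the 4 stretches above holds a match, and the one match in the FOXO4 window begins 23 bases past the start. GTAAACA lay in 6 of the 38 windows, those of FOXO4, YPEL3, TXNIP, MXI1 (2 windows) and TRIB2, against 3.42% of 35116 windows of all genes. ATAAACA lay in 3 of them, those of FOXO3, RBL2 and TRIM63, against 4.24%. CAAAACA lay in 2, those of GABARAPL1 and SGK1, against 4.92%. Over all 3 words, 11 of the 38 windows held a match, against 11.8% of all windows. A match is a description of these letters and not a binding site, and the members include many of the best known FOXO targets. The matches of GTAAACA, and those of ATAAACA in FOXO3 and RBL2, are printed with the word in capitals, read as TGTTTAC or TGTTTAT where it lies on the other strand.

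FOXO4, chrX:71095863-71095891, plus strand: cccggcgagtgGTAAACAgagacgtcagg
YPEL3, chr16:30096196-30096224, minus strand: ctgggctcggtGTAAACAagtccaggcgc
TXNIP, chr1:145996686-145996714, minus strand: tcgggctcctgGTAAACAaggaccgggca
MXI1, first start, chr10:110210069-110210097, plus strand: cgccacctcgtTGTTTACcccgtgccggg
MXI1, second start, chr10:110225983-110226011, plus strand: cgcggggagagGTAAACAaaccacgcgcg
TRIB2, chr2:12716686-12716704, plus strand: tTGTTTACctccccggccg
FOXO3, chr6:108560672-108560700, plus strand: ccgagcgaaacATAAACAaacgcacgcac
RBL2, chr16:53435607-53435635, plus strand: gaagtacggatTGTTTATcagctgtttga

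Among the 30 measured members, 0 passed an adjusted p under 0.05 in limma, the range of adjusted p being 0.103 to 0.995. Over all genes 0.109% passed. No member differed by over 1.5-fold, against 0.923% of all genes. At an unadjusted p under 0.05, 4 members were higher with p53si-1, BCL6, CCNG2, CDKN1B and FOXO4, and 2 were lower, KLF6 and PINK1. These 6 are 20.0% of the members, while of all genes 5.45% were higher and 6.8% lower at that p, 12.3% together. With the genes below the median signal left out, 7 of 22 members had such a p, and 19.4% of all remaining genes did. That median is of the mean signals of the genes and lies above the array medians. The 8 members dropped were FOXO3, TXNIP, PDK4, PCK1, G6PC1, MAP1LC3B, TRIM63 and SGK1. On 8 members both p53si-1 arrays lay above both NS arrays and on 5 both lay below. These 13 are 43.3% of the members and the background is 42.5%, made of 19.9% higher and 22.6% lower, so this share was near that of all genes. The mean was higher with p53si-1 for 17 members and lower for 13, against 8723 higher and 9693 lower of all genes. The median difference was 0.04 over the members and -0.01 over all genes, and the median size of a difference, regardless of sign, was 0.13 against 0.09. The list thus held differences in both directions.

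**Figure D1:**
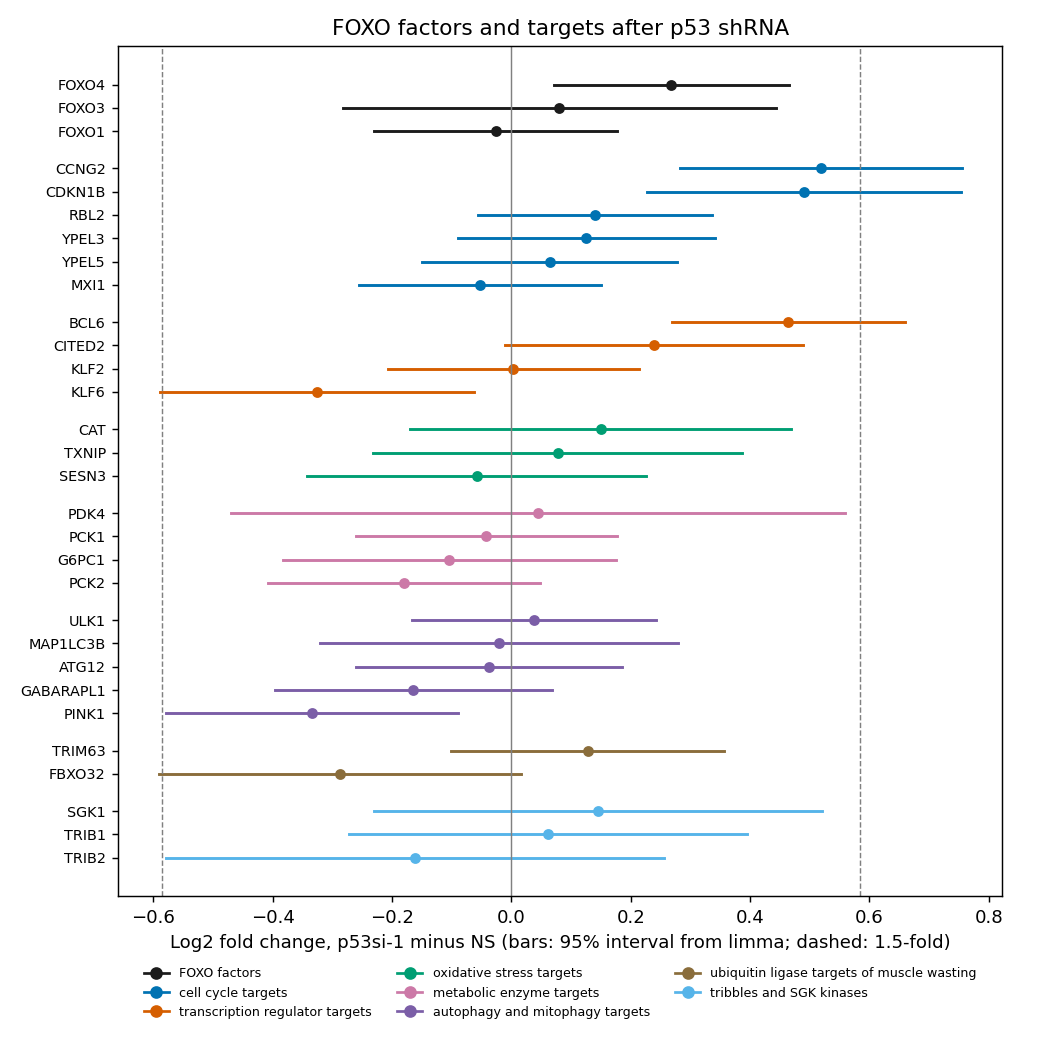
Difference in log2 signal between p53si-1 and NS (x axis) for each of the 30 measured members (y axis), grouped by role; points are differences of group means over 2 arrays each, bars are 95% intervals from limma and dashed lines mark 1.5-fold. CCNG2, CDKN1B, BCL6 and FOXO4 lie to the right of 0 and KLF6 and PINK1 to the left, while the intervals of the other 24 members cross 0.

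The FOXO factors themselves were measured first. FOXO1, a main mediator of insulin signalling in liver and other tissues, had log2 signals of 7.43 and 7.52 with NS and of 7.45 on each p53si-1 array. Both p53si-1 arrays lay between the NS arrays, and the difference was -0.03 (SE 0.08, adjusted p = 0.935). FOXO3, the factor most often tied to apoptosis and stress resistance, had log2 signals of 6.62 and 6.23 with NS and 6.62 and 6.40 with p53si-1. The replicate 2 arrays were the lower ones in both groups, and the group difference of 0.08 (SE 0.15, adjusted p = 0.881) was smaller than the gap between the NS arrays. A second cluster on the array names both FOXO3 and its near-identical copy FOXO3B, so the FOXO3 signal is uncertain in what it counts.

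FOXO4, a smaller relative of FOXO1 and FOXO3, was the factor with the largest difference. Its log2 signals were 8.06 and 7.99 with NS and 8.29 and 8.29 with p53si-1. Both p53si-1 arrays were above both NS arrays, by 0.27 (SE 0.08, 95% interval 0.07 to 0.46). The unadjusted p was 0.0157 and the adjusted p 0.278, so FOXO4 did not pass the test over all genes. Whether the 3 factors differ from each other in their response was not tested.

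Of the 6 target genes that act on the cell cycle, 5 had a higher mean with p53si-1, where 8723 of all 18417 genes did. For 4 of the 5 the groups did not overlap, where 19.9% of all genes were higher without overlap. CCNG2 encodes cyclin G2, an unconventional cyclin that slows the cycle and is among the genes with the best described FOXO control. The study's discussion also lists cyclin G2 among genes that mutant p53 can affect through inhibition of TAp63, a p53 relative. Whether either route bears on CCNG2 here was not tested. The log2 signals of CCNG2 were 9.07 and 8.92 with NS and 9.58 and 9.45 with p53si-1. The p53si-1 arrays were both higher, by 0.51 between the replicate 1 arrays and by 0.53 between the replicate 2 arrays. The difference of 0.52 (SE 0.10, 95% interval 0.28 to 0.76), a fold of 1.43, was the largest of any member, with an unadjusted p of 0.00161 and an adjusted p of 0.125.

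CDKN1B encodes p27, an inhibitor of cyclin-dependent kinases that FOXO proteins induce when AKT is off. Its log2 signals were 7.71 and 7.53 with NS and 8.02 and 8.20 with p53si-1. Both p53si-1 arrays were above both NS arrays, although the size differed between the replicate numbers, 0.31 for replicate 1 and 0.67 for replicate 2. The difference was 0.49 (SE 0.11, 95% interval 0.23 to 0.75), a fold of 1.40, with an unadjusted p of 0.00369 and an adjusted p of 0.172.

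The other members of this role differed less. RBL2, the retinoblastoma relative p130 that represses cell cycle genes in resting cells, differed by 0.14 (SE 0.08), from 9.41 and 9.38 with NS to 9.51 and 9.56 with p53si-1, without overlap. YPEL3, a growth-suppressing member of the yippee-like family, differed by 0.13 (SE 0.09), also without overlap. The groups overlapped for its relative YPEL5 (0.06) and for MXI1 (-0.05), an antagonist of MYC. The adjusted p of these 4 genes lay between 0.551 and 0.853.

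BCL6, a transcriptional repressor that FOXO factors induce in several cell types, had the lowest adjusted p of the members. Its log2 signals were 8.85 and 8.80 with NS and 9.27 and 9.30 with p53si-1. The groups were tight and did not overlap, with a spread of 0.03 (SD, n = 2) within NS and 0.02 (SD, n = 2) within p53si-1. The difference was 0.46 (SE 0.08, 95% interval 0.27 to 0.66), a fold of 1.38, with an unadjusted p of 0.00106 and an adjusted p of 0.103. When the genes below the median signal were left out, the adjusted p of BCL6 was 0.0334 and that of CCNG2 was 0.0447. With a prior variance that follows the mean signal, BCL6 had an adjusted p of 0.0417 and CCNG2 of 0.0571. With the replicate number as a block, the adjusted p was 0.0839 for BCL6 and 0.075 for CCNG2. With no variance prior it was 0.375 for BCL6 and 0.499 for CCNG2.

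CITED2, a transcriptional coregulator that restrains the hypoxia response, differed in the same direction with more spread. Its log2 signals were 8.66 and 8.63 with NS and 9.00 and 8.77 with p53si-1. Both p53si-1 arrays were higher, but the gap between them was nearly as large as the group difference of 0.24 (SE 0.10, adjusted p = 0.422). KLF6, a zinc finger factor described as a growth suppressor, differed the other way. Its log2 signals were 7.62 and 7.54 with NS and 7.38 and 7.13 with p53si-1. Neither p53si-1 array reached the NS arrays, and the difference was -0.33 (SE 0.11, 95% interval -0.59 to -0.06), with an unadjusted p of 0.0227 and an adjusted p of 0.318. KLF2, a relative that FOXO1 drives in lymphocytes, showed a difference of 0.00 (SE 0.09) with overlapping arrays.

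**Figure D2:**
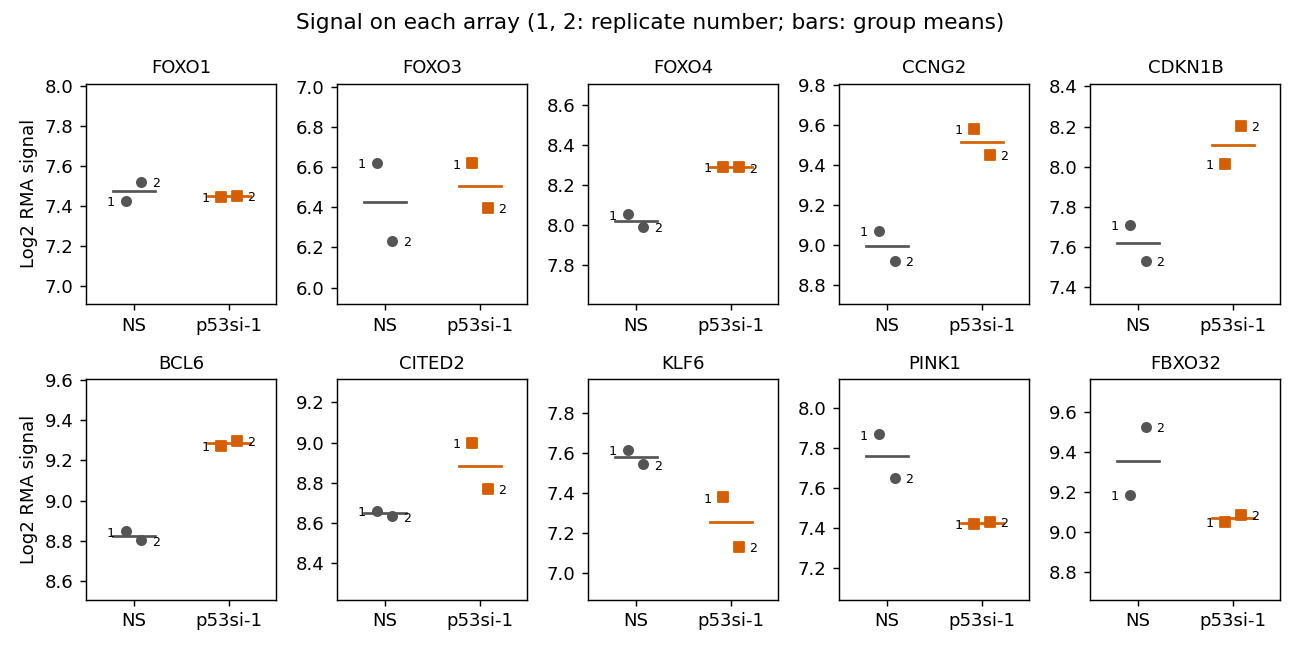
Log2 signal (y axis, own scale in each panel) of 10 members on each of the 4 arrays, with NS at left and p53si-1 at right; the number at each point is its replicate and the horizontal bars are group means. The p53si-1 points lie above the NS points for FOXO4, CCNG2, CDKN1B, BCL6 and CITED2, below them for KLF6, PINK1 and FBXO32, and among them for FOXO1 and FOXO3.

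None of the 3 target genes of oxidative stress defence separated the groups. CAT encodes catalase, which breaks down hydrogen peroxide, and its log2 signals were 10.4 and 10.1 with NS and 10.5 and 10.3 with p53si-1, a difference of 0.15 (SE 0.13). SESN3, a sestrin that limits mTORC1 and supports peroxiredoxins, differed by -0.06 (SE 0.12). TXNIP, the thioredoxin-interacting protein, differed by 0.08 (SE 0.13) at a signal of 3.45 to 3.78 on the arrays, below the median of every array. The arrays of the groups overlapped for all of these, and their adjusted p lay between 0.719 and 0.890.

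None of the 4 metabolic targets had an unadjusted p under 0.05. PCK1 and G6PC1 are the liver and kidney enzymes of glucose production, PCK2 the mitochondrial form of the former, and PDK4 the kinase that shuts pyruvate out of the citric acid cycle. PDK4 had the widest spread of any member, with log2 signals of 5.40 and 4.78 with NS and 5.30 and 4.97 with p53si-1, a difference of 0.04 (SE 0.21, 95% interval -0.47 to 0.56). Both replicate 2 arrays were below both replicate 1 arrays. PCK1 differed by -0.04 (SE 0.09) and G6PC1, listed as G6PC, by -0.10 (SE 0.12). Both, like PDK4, had signals under the median of every array. PCK2 was the one of these without overlap, with 8.82 and 8.64 with NS against 8.57 and 8.53 with p53si-1 and a difference of -0.18 (SE 0.09, adjusted p = 0.511).

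Of the 5 targets in autophagy and mitophagy, 4 had a lower mean with p53si-1, where 9693 of all 18417 genes did. Among the 4, MAP1LC3B and ATG12 changed sign when some single array was left out. PINK1, the kinase that marks damaged mitochondria for removal, had log2 signals of 7.87 and 7.65 with NS and 7.42 and 7.43 with p53si-1. The p53si-1 arrays were both lower, with differences of -0.45 for replicate 1 and -0.22 for replicate 2. The difference was -0.33 (SE 0.10, 95% interval -0.58 to -0.09), with an unadjusted p of 0.0152 and an adjusted p of 0.274, and it was the most negative of any member. GABARAPL1, an ATG8 protein of the autophagosome membrane, also separated the groups, with 8.33 and 8.14 with NS against 8.07 and 8.07 with p53si-1 and a difference of -0.16 (SE 0.10, adjusted p = 0.557).

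The remaining genes of autophagy overlapped between the groups. MAP1LC3B, the ATG8 protein LC3B, differed by -0.02 (SE 0.12), ATG12, part of the conjugation system that lipidates LC3, by -0.04 (SE 0.09), and ULK1, the kinase that starts autophagy, by 0.04 (SE 0.08). A further cluster names MAP1LC3B together with its near-identical copy MAP1LC3B2, so the signal of MAP1LC3B is uncertain in the same way as that of FOXO3.

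FBXO32 (atrogin-1) and TRIM63 (MuRF1) are the ubiquitin ligases that FOXO factors induce in wasting muscle. FBXO32 had log2 signals of 9.19 and 9.53 with NS and 9.05 and 9.09 with p53si-1. Both p53si-1 arrays were lower, but the difference of -0.29 (SE 0.13, 95% interval -0.59 to 0.02, adjusted p = 0.425) was smaller than the difference of 0.34 between the NS arrays. TRIM63 had log2 signals of 4.26 and 4.08 with NS and 4.31 and 4.28 with p53si-1, below the median of every array, and a difference of 0.13 (SE 0.09, adjusted p = 0.652) without overlap. These muscle genes thus had opposite signs, and neither passed the test.

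The kinases and pseudokinases of the list overlapped between the groups. SGK1, an AKT-related kinase that itself phosphorylates FOXO3, had log2 signals of 6.09 and 6.22 with NS and 6.08 and 6.52 with p53si-1, a difference of 0.14 (SE 0.15) that rested on p53si-1 replicate 2. TRIB1 and TRIB2 are tribbles pseudokinases that act as scaffolds, TRIB2 being described as a repressor of FOXO3. TRIB1 differed by 0.06 (SE 0.14). TRIB2 had log2 signals of 8.27 and 7.76 with NS and 7.93 and 7.77 with p53si-1, a difference of -0.16 (SE 0.17), and NS replicate 1 alone was the high array. The adjusted p of these 3 genes lay between 0.768 and 0.905.

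How firmly a small difference can be stated depends on the spread, and the SE of the members ran from 0.08 for BCL6 to 0.21 for PDK4. For 25 of the 30 members, 83.3%, the 95% interval lay within 1.5-fold in both directions, against 91.9% of all genes. The 5 exceptions were CCNG2, CDKN1B, BCL6, KLF6 and FBXO32, whose intervals reached past 1.5-fold on 1 side. For the other members a change of over 1.5-fold on this scale lay outside the interval. This does not show that they were equal between the groups. A criterion of 1.2-fold was met by 7 members, the 6 with an unadjusted p under 0.05 and FBXO32. The share of all genes at 1.2-fold was not counted, so this count has no background beside it.

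The replicate numbers give another view of the same arrays. The difference had the same sign between the replicate 1 arrays and between the replicate 2 arrays for 19 of the 30 members, higher for 12 and lower for 7. This is 63.3% of the members, close to the 62.0% of all genes. All 6 members of the cell cycle role were among them. In 16 members, 53.3%, the replicate 2 array was below the replicate 1 array in both groups, against 32.0% of all genes. FOXO3, CAT, PDK4, TRIB1 and TRIB2 were among them, as were CCNG2 and FOXO4. With the replicate number as a block in the limma fit, no member had an adjusted p under 0.05.

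**Figure D3:**
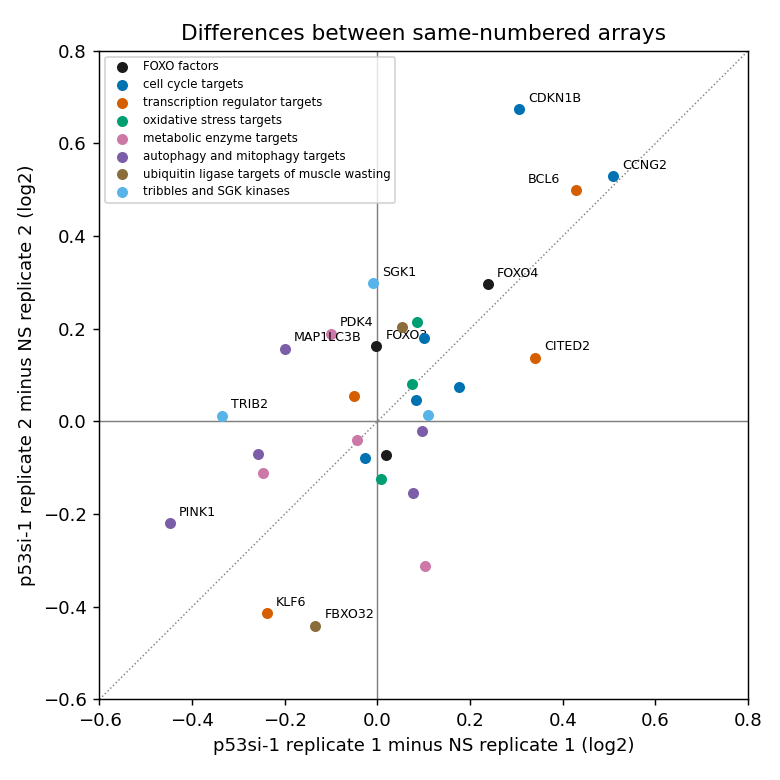
Difference in log2 signal between p53si-1 and NS for the replicate 1 arrays (x axis) and the replicate 2 arrays (y axis), 1 point for each of the 30 measured members. CCNG2, CDKN1B and BCL6 are positive on both axes and PINK1, KLF6 and FBXO32 negative on both, while TRIB2 lies at -0.34 for replicate 1 and 0.01 for replicate 2.

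Further FOXO target genes that are not on the list were read in the same way, 24 of 24 measured. None passed the adjusted test, and their median difference was 0.01. At an unadjusted p under 0.05, 1 was higher and 3 were lower (16.7%, against 12.3% of all genes). With the genes below the median signal left out, that share was 19.4% over all remaining genes. The further targets were not counted under that filter, so 19.4% is no direct background for their 16.7%. SOD2, the mitochondrial superoxide dismutase, had log2 signals of 10.3 and 10.5 with NS and 9.90 and 10.0 with p53si-1, a difference of -0.41 (SE 0.11, adjusted p = 0.244). CCND2 (cyclin D2) differed by -0.29 and GADD45A, a DNA damage response gene, by -0.24, while RICTOR, a subunit of mTORC2, differed by 0.28. The CCND2 signal was below the median of every array. These 24 genes were not split by the direction in which FOXO acts on each, so their counts and median do not report FOXO activity. Of the apoptotic targets, BCL2L11 (BIM) differed by 0.12 (SE 0.08), BBC3 (PUMA) by -0.08 (SE 0.12) and TNFSF10 (TRAIL) by -0.25 (SE 0.17). CDKN1A, the p21 relative of CDKN1B, differed by 0.16 (SE 0.11). BMF, the BCL2-modifying factor that the study links to the pathway, had log2 signals of 6.92 and 7.02 with NS and 7.68 and 7.68 with p53si-1, a difference of 0.71 (SE 0.08) with an adjusted p of 0.0590. That p was 0.0165 with the dim genes left out, 0.0233 with the trended prior variance and 0.0365 with the arrays centred on their medians. It was 0.0508 with quantile normalization, 0.0573 with clusters averaged, 0.061 with the replicate block and 0.392 with no variance prior. With single arrays left out, the BMF difference ran from 0.66 to 0.77. The BMF difference was larger than that of any FOXO member and did not overlap between groups.

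Genes that modify or transport FOXO proteins, 24 of 24 measured, included 2 higher and 6 lower at an unadjusted p under 0.05. These are 33.3% of them, against 12.3% of all genes. With the dim genes left out, the share over all remaining genes was 19.4%. The regulators were not counted under that filter, so 19.4% is no direct background for their 33.3%. The median difference of the 24 regulators was -0.01, and none of them had an adjusted p under 0.05. The kinase MAPK8 (JNK1) had log2 signals of 8.13 and 8.43 with NS and 7.60 and 7.80 with p53si-1, a difference of -0.58 (SE 0.13, adjusted p = 0.175). The deacetylase SIRT2 differed by -0.52 (SE 0.12, adjusted p = 0.176), the nuclear export receptor XPO1 by -0.50 (SE 0.09, adjusted p = 0.123) and the methyltransferase SETD7 by -0.37 (SE 0.08, adjusted p = 0.172). XPO1 had an adjusted p of 0.0438 with the dim genes left out and 0.0445 with the trended prior variance. In the other settings that kept all arrays, it ran from 0.076 with the replicate block to 0.49 with no variance prior. For each of these 4 genes, named for the size of their differences, both p53si-1 arrays were below both NS arrays. Of the 24 regulators, 10 were lower and 7 higher without overlap, against 22.6% and 19.9% of all genes. For the 6 genes on this list that encode 14-3-3 proteins, which hold phosphorylated FOXO in the cytoplasm, the differences ran from -0.12 for YWHAQ to 0.09 for YWHAE. SIRT1, another deacetylase of FOXO proteins, differed by 0.26 (SE 0.10, adjusted p = 0.368).

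Upstream of FOXO, 17 of 21 genes of the PI3K/AKT pathway were measured. Of these, 1 was higher and 2 were lower at an unadjusted p under 0.05 (17.6%, against 12.3% of all genes). None passed the adjusted test, and the median difference was -0.03. With the dim genes left out, 19.4% of all remaining genes had an unadjusted p under 0.05. The pathway genes were not counted under that filter, so 19.4% is no direct background for their 17.6%. PIK3R3, a regulatory subunit of PI3K, had log2 signals of 9.83 and 9.87 with NS and 10.1 and 10.2 with p53si-1, a difference of 0.31 (SE 0.08, adjusted p = 0.235). The catalytic subunit PIK3CB differed by -0.26 (SE 0.09) and the kinase AKT1 by -0.22 (SE 0.09), at adjusted p of 0.349 and 0.397. AKT2 differed by -0.03 (SE 0.08). The remaining 4 genes are not analysed here.

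Relatives of the targets from the same gene families, 32 of 32 measured, serve to set the members beside genes of like structure. Of these, 3 were higher and 1 was lower at an unadjusted p under 0.05, 12.5% against 12.3% of all genes, with a median of -0.02 and none at an adjusted p under 0.05. YPEL1, a relative of YPEL3 and YPEL5, had log2 signals of 6.22 and 6.12 with NS and 6.73 and 6.68 with p53si-1, a difference of 0.53 (SE 0.09, adjusted p = 0.0919). KLF5 and KLF3, relatives of KLF6 and KLF2, differed by 0.38 and 0.30, and PDK1, a relative of PDK4, by -0.22. CCNG1, the relative of CCNG2 and a target of wild-type p53, differed by -0.06 (SE 0.08) and its arrays did not overlap. Whether CCNG2 and CCNG1 differ in their response was not tested.

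**Figure D4:**
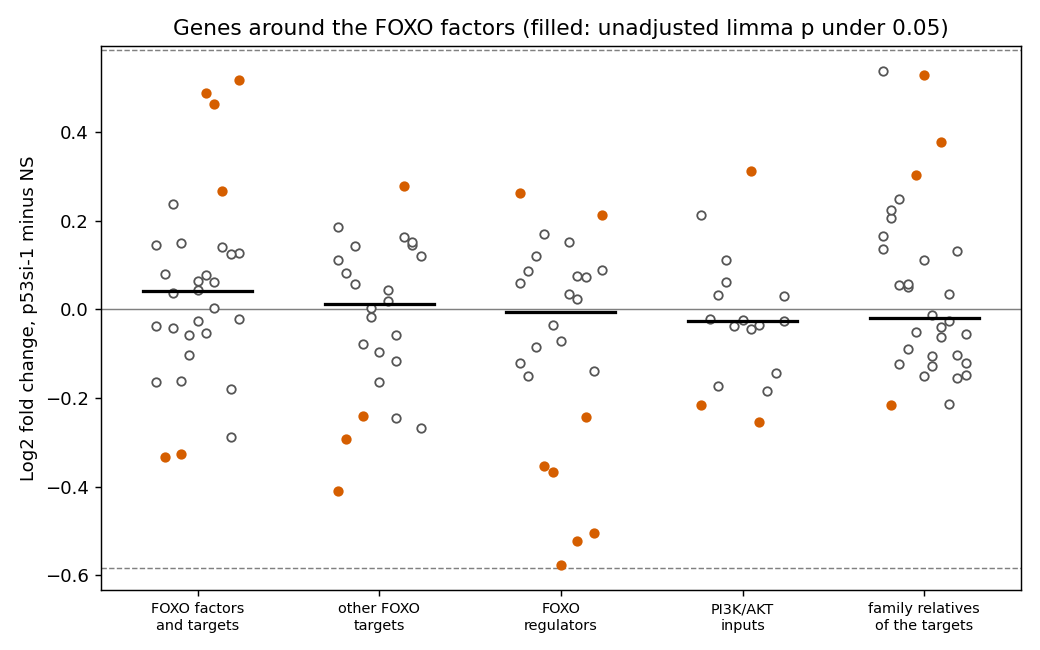
Difference in log2 signal between p53si-1 and NS (axis in log2) for every measured gene of 5 lists, the FOXO members, further FOXO targets, FOXO regulators, PI3K/AKT genes and family relatives of the targets; filled points have an unadjusted p under 0.05 in limma, the bars are list medians and the dashed lines mark 1.5-fold. The medians lie between -0.03 and 0.04, and each list holds filled points on both sides of 0.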

How the data were processed

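MDA-MB-468 cells with NS or p53si-1 shRNA were measured on 2 arrays per group. The authors deposited 1 log2 signal per transcript cluster and array. RMA, Affymetrix Expression Console and GCOS are named in the submitters' processing notes, with settings not given in the sources used here. The log2 scale was inferred from the values. RMA equalises the distributions of the arrays, which would remove a shift shared by most transcripts, and can understate fold changes.

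Of 33297 clusters, 19460 name 1 symbol in the platform annotation, 1754 several and 12083 none here. Only clusters with 1 symbol were used. Entrez numbers checked against RefSeq GRCh38.p14 changed 0 symbols, and G6PC was matched as G6PC1 through its synonyms. Each of 18417 genes was taken from its cluster with the highest mean signal (769 genes had several), with no filter on dim genes. The groups were compared by lmFit and eBayes of limma 3.58.1 (R 4.3.3), with 4.20 prior and 2 residual degrees of freedom and Benjamini-Hochberg adjustment over all genes. Precision is limited by the number of arrays, for which the smallest two-sided permutation p is 0.333. The steps were tested on simulated data.

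The members, the further gene lists and the rule for named genes were chosen with earlier results of these data known. All members are named. Array values are given for the FOXO factors, CCNG2, BMF and members with an unadjusted p under 0.05 without overlap, and for some others chosen after their values were seen. Of each further list, up to 4 genes with the largest difference at an unadjusted p under 0.05 are named, and BCL2L11, BBC3, TNFSF10, CDKN1A, SIRT1, AKT2, CCNG1 and the 14-3-3 genes were added after their values were seen. The alternatives averaged clusters, renormalized or centred the arrays, left out dim genes or single arrays, changed the variance prior or the fold criterion, and used the replicate number as a block.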

Additional observations from a re-analysis of the deposited data

How the results depend on the processing

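No setting other than leaving out an array reversed the sign of a member. The filter on dim genes, the variance priors and the replicate block leave the difference of a gene unchanged, so they could not reverse a sign. With genes below the median signal left out, 22 members remained in the test and 2 passed an adjusted p under 0.05, CCNG2 and BCL6, where 2.39% of all genes passed. With a prior variance that follows the mean signal 1 passed, BCL6, where 0.809% of all genes did. Over all genes the calls at that threshold ran from 0 to 220 across the settings, against 20 in the reported analysis. At 1.2-fold 7 members were counted, with no count over all genes beside them. Without 1 array, 0 to 1 members exceeded 1.5-fold (CCNG2, without NS replicate 1), 11 to 14 were higher and 9 to 10 lower without overlap, since 1 array overlaps less easily than 2 (66.7% to 80.0% of members in either direction, against 68.7% to 75.2% of all genes), and the median difference ran from -0.0081 to 0.044. The lone array is assumed to vary like the other group. With the replicate block, 8 members had an unadjusted p under 0.05 and 0 an adjusted one, while the share of all genes at that unadjusted p was 17.0%, against 12.3% without the block. The same-numbered arrays correlated by 0.24 in their deviations over genes, but 2 pairs cannot establish a pairing.

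Of the 30 members, 15 changed sign when some array was left out. The difference then ran from -0.074 to 0.022 for FOXO1, -0.11 to 0.27 for FOXO3, -0.059 to 0.064 for KLF2, -0.19 to 0.077 for SESN3, -0.048 to 0.20 for TXNIP, -0.0093 to 0.31 for CAT, -0.26 to 0.35 for PDK4, -0.096 to 0.012 for PCK1, -0.22 to 0.0095 for G6PC1, -0.19 to 0.15 for MAP1LC3B, -0.10 to 0.026 for ATG12, -0.012 to 0.087 for ULK1, -0.10 to 0.22 for TRIB1, -0.42 to 0.094 for TRIB2 and -0.078 to 0.37 for SGK1. The cause was not tested. The other 15 members, among them CCNG2, CDKN1B, BCL6, FOXO4, KLF6 and PINK1, kept their sign in every setting.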
